A study of Sus scrofa with 20 samples.

Results

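The longissimus dorsi, the long muscle along the back, was compared between embryos of 35 days post coitum (dpc) and fetuses of 49 dpc in 2 pig breeds. Landrace (LR) is a lean, fast-growing European breed and Lantang (LT) a slow-growing, fat Chinese breed. Members were chosen by the labels alone, as the 4 libraries labelled 35 or 49 dpc in either breed, out of 20 libraries in all. The groups were LR at 35 dpc, LR at 49 dpc, LT at 35 dpc and LT at 49 dpc, purebred, untreated and with 1 library each. For every library the RNA of 3 males was pooled in equal amounts from the offspring of 2 sows per breed and time point, so no breed and stage was replicated and different animals stood at each stage. The breeds therefore served as the pair of replicates of a stage, and a difference between breeds could not be told apart from a difference between pools. Each library was a digital gene expression (DGE) library, made by cutting cDNA with NlaIII, an enzyme that recognises CATG, and by reading the adjoining bases. Every tag was 21 bases long, CATG and the next 17 bases. Levels are given as TPM, the copies of a tag per 1000000 clean tags of its library. The files give tags without gene names, and no transcripts were used here to name them, so all values below are of tags and the muscle origin of the RNA was not checked with marker genes.

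In the pig embryo, myoblasts fuse first into primary myotubes, which lay out the plan of the muscle. Secondary fibres then form along their surface during fetal life and become the larger share of all fibres, and fibre number is settled before birth. The step from embryonic to fetal muscle is thus known as a change of the cells that divide and fuse, and of the contractile and matrix proteins they make. The comparison asks which tags changed level over this step, and whether they did so in both breeds.

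The smallest of the 4 libraries, that of LT at 35 dpc, held 2955595 clean tags and the largest, also of LT, 5080215. Together they held 394049 of the 801159 distinct tags of the series. One copy was worth 0.197 to 0.338 TPM, and 3 copies, taken as the smallest detectable amount, 0.591 to 1.02 TPM. Tags of 1 copy had been removed, so a level of 0 TPM stands for 0 or 1 copies. Floors, and intervals on shares of counts, cover counting error only. The LR library of 49 dpc stood apart from the other 3. Over the 28633 tags whose mean over the 4 libraries reached 5 TPM, it correlated with them at r = 0.434 to 0.509 on the log2(TPM + 1) scale. The other 3 correlated with each other at 0.699 to 0.713, so that LR at 35 dpc was about as close to LT at 49 dpc (0.699) as to LT at 35 dpc (0.713). With the LR libraries of 63, 77 and 91 dpc, the library of 49 dpc correlated at 0.873 to 0.916. The LR libraries of 77 and 91 dpc correlated with the same 3 libraries at 0.478 to 0.570, so a low r with them was not particular to LR at 49 dpc. These values are descriptions across tags, which share depth and library and are not replicates.

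With breed as a block, edgeR's quasi-likelihood test tested 58167 tags and called 105 at an adjusted p below 0.05, or 0.181%. Of these, 9 tags (0.0155%) were higher and 96 (0.165%) were lower at 49 dpc, and all 105 moved the same way in both breeds. The test looks for a change common to both breeds, so this agreement follows largely from how the tags were called and is no result. The following tags carry this comparison. Risers are the 8 higher tags that also passed a binomial test within each breed, ordered by level and then by fold. Fallers are the 6 lower tags with the highest level at 35 dpc and the lower tag with the next largest fold. CATG, in capitals, is the restriction site at the 5′ end.
riser 1: CATGtggaaatgacccaaaaa
riser 2: CATGtagcaattacacataag
riser 3: CATGtgggcagccttcccccc
riser 4: CATGttaacttcagtgatagt
riser 5: CATGtgataggtatttataga
riser 6: CATGgaaaaaacaaaatagaa
riser 7: CATGggctttttgcttaattg
riser 8: CATGgtttccagaagcagttt
faller 1: CATGttaactttattacaatt
faller 2: CATGcacagtttgcaactttt
faller 3: CATGgtggagcacagcttctc
faller 4: CATGttatggaattgatttgc
faller 5: CATGgagtgaaaaggtgaggc
faller 6: CATGttaaaaaaatagttcat
faller 7: CATGtccctatgattagtggg

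The fallers were tags of the embryo that were nearly gone at 49 dpc. In whole muscle, fewer cells of a type and less RNA per cell cannot be told apart. Faller 1 had 63.3 TPM in LR and 487 TPM in LT at 35 dpc and was absent from both libraries of 49 dpc. Against the floor of 3 copies per library it was at least 94.2-fold lower in LR and at least 824-fold lower in LT at 49 dpc (edgeR, adjusted p = 1.37e-05). It had the smallest adjusted p of all tags tested, and it was found in 1 of the other 16 libraries of the series, at 0.390 TPM. Faller 2 fell from 40.2 to 0.672 TPM in LR and from 362 to 1.18 TPM in LT (edgeR log2 fold change -6.83 ± 1.47 SE, adjusted p = 0.0157). Faller 3 fell from 246 to 0.672 TPM in LR and from 90.3 to 0.591 TPM in LT (-7.48 ± 1.48 SE, adjusted p = 0.00870, edgeR). Faller 4 fell from 102 to 1.34 TPM in LR and from 211 to 2.36 TPM in LT (75.8-fold and 89.2-fold lower, edgeR adjusted p = 0.0182). In fallers 2 to 4 the fall was 59.8-fold to 366-fold in LR and 89.2-fold to 306-fold in LT.

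Faller 5 had 101 TPM in LR and 54.1 TPM in LT at 35 dpc, and 0 and 1.18 TPM at 49 dpc (edgeR, adjusted p = 0.0171). Faller 6 went from 16.1 to 0 TPM in LR and from 129 to 1.57 TPM in LT (edgeR, adjusted p = 0.0222). Faller 7 went from 25.5 TPM in LR and 97.4 TPM in LT to 0 in both (edgeR, adjusted p = 0.00756). Which breed held more of a faller at 35 dpc thus differed from tag to tag. Over the 96 called tags LT was above LR in 78, with a median ratio of LT to LR of 3.54. LT was also above LR at 35 dpc in 1862 of the 2417 tags that the binomial test called lower in both breeds. The tags were called on these same levels, and the share over all tags tested is not given, so the count is not read as a trait of the fallers. The 4 other tags named by fold, all absent at 49 dpc, had 4.72 to 11.1 TPM in LR and 57.5 to 77.1 TPM in LT at 35 dpc.

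The 96 fallers together made up 1743 TPM of LR and 3972 TPM of LT at 35 dpc, and 4.03 and 13.4 TPM at 49 dpc. Of them, 80 were absent from both libraries of 49 dpc. In the 6 libraries of 63, 77 and 91 dpc, which played no part in the calls, the sum stayed between 9.20 and 50.2 TPM, and in the 10 postnatal libraries between 3.09 and 39.0 TPM. Of the 96 tags, 56 were absent from all 16 other libraries, and 26 reached 3 copies in at least 1 library of 63 to 91 dpc, with a highest value of 24.1 TPM. The tags lost by 49 dpc thus came to 50.2 TPM or less together in every later library, LR and LT alike.

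The risers were fewer and less alike. Riser 1 rose from 329 to 3585 TPM in LR, 10.9-fold, and from 69.7 to 453 TPM in LT, 6.50-fold (edgeR log2 fold change 3.43 ± 0.863 SE, adjusted p = 0.0421). Its level then moved without a common order, with 1067, 257 and 3199 TPM in LR and 2143, 803 and 155 TPM in LT at 63, 77 and 91 dpc. At 77 dpc in LR it was below its level of 35 dpc. Riser 2 rose from 7.32 to 349 TPM in LR, 47.7-fold, and from 8.80 to 263 TPM in LT, 29.9-fold (5.59 ± 1.23 SE, adjusted p = 0.0161, edgeR). It was higher again from 63 to 91 dpc, at 561 to 751 TPM in LR and 464 to 738 TPM in LT. The levels of riser 2 in LR and LT were close to each other at every prenatal stage. It reached 3186 TPM in LR and 2630 TPM in LT at 90 days post natum (dpn).

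Riser 3 was absent from LR at 35 dpc and had 302 TPM there at 49 dpc, and in LT it had 2.37 and 32.9 TPM (edgeR, adjusted p = 0.0182). A tag 1 base away, CATGtgggcagccttccctcc, was more abundant, and with such tags merged the counts were 134 and 3872 in LR and 76 and 447 in LT. Risers 4 to 8 were absent from both libraries of 35 dpc and had 10.8 to 24.0 TPM in LR and 3.54 to 12.6 TPM in LT at 49 dpc (edgeR, adjusted p = 0.0157 to 0.0435). Riser 4, the highest of them, was at least 33.8-fold higher in LR and at least 12.4-fold higher in LT. Risers 5 and 7 had more abundant neighbours 1 base away, and with these merged the counts of riser 7 were 100 and 99 in LR and 45 and 76 in LT. When tags 1 base apart were merged, the tags that took in risers 3, 5 and 7 had log2 fold changes of 3.65, 2.46 and 0.31 and were not called. The smaller risers did not all stay. Riser 5 was absent from the LR libraries of 63, 77 and 91 dpc, where LT had 21.2 to 30.2 TPM.

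**Figure D1:**
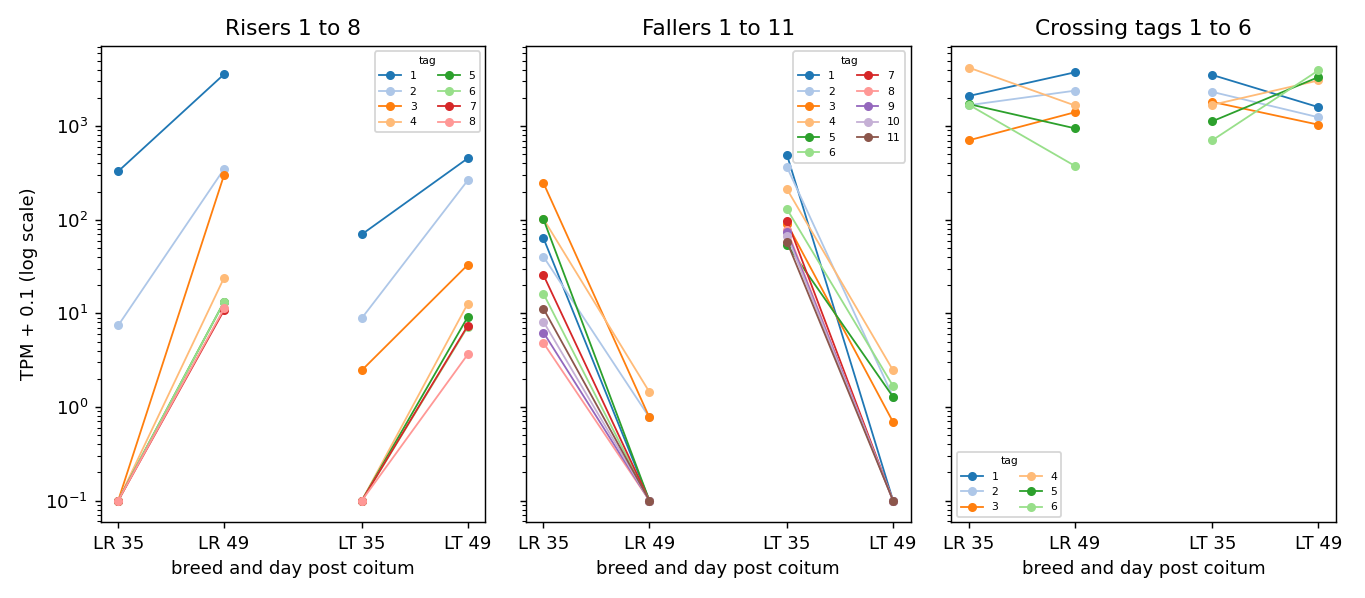
TPM + 0.1 on a log axis of the named tags in the 4 libraries, 1 line per tag and breed and 1 library per point, with no error bars because no breed and stage was replicated. All 8 risers go up and all 11 fallers go down in both breeds, and each of the 6 crossing tags goes opposite ways. These directions follow from how the tags were chosen.

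The count of 105 tags rested on the model. With breed as a block 1626 tags had an unadjusted p below 0.05. Without breed in the model edgeR called 0 tags and 2142 had an unadjusted p below 0.05. With 1 library left out the breed could no longer be a block, and the spread of the lone library was taken from the other stage. These fits called 14 tags without LR at 35 dpc, 1 without LT at 35 dpc and 0 without either library of 49 dpc, with 5597 tags at an unadjusted p below 0.05 without LR at 49 dpc and 17854 without LT at 49 dpc. Each of these fits dropped the block together with a library, and all 4 libraries without the block gave 0 calls. The effect of a single library therefore cannot be told apart from that of the block. With the spread taken from all 10 prenatal libraries, 0 tags were called and the smallest adjusted p was 0.0505 (6761 at an unadjusted p below 0.05). Prior degrees of freedom weigh the spread shared over tags against the spread of each tag. They were infinite in the main fit, so no tag had a spread of its own. For the stage difference, edgeR called tags only in fits where they were infinite. They were finite without breed in the model (5.12) and with the 10 prenatal libraries (7.07). Which of these differences between the fits lowered the count was not tested. DESeq2 gave an adjusted p for 34485 tags and called 502 of them, 321 higher and 181 lower, so the excess of lower tags was not seen with that tool. Of the 502 tags, 17 were among the 105. How many of the 105 were among the 34485 is not given, so the tools were not compared on equal sets.

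Within a breed, each tag was compared with a 2-sided exact binomial test at p below 0.009, a false discovery rate below 0.02 and an absolute log2 ratio above 0.5. Such a test compares 2 libraries and not 2 stages. In LR, 4.09% of the 282082 tags tested were higher and 7.98% lower at 49 dpc. In LT, 1.73% of 283918 were higher and 3.38% lower. Of the 171951 tags found in both breeds, 739 (0.43%) were called higher in both and 2417 (1.41%) lower in both. In opposite directions 3165 tags were called (1.84%), about as many as the 3156 called in the same direction. Of the tags called higher in LR and found in LT, 7.13% were called higher and 11.5% lower in LT. Of the 21901 called lower in LR, 2417 were called lower and 1977 (9.03%) higher in LT. Over all tags found in both breeds, LT called 2.66% higher and 5.06% lower. This contrast depended on level. When only the 28633 tags averaging 5 TPM or more were counted, LT called 11.2% of them higher and 19.4% lower. Of those called higher in LR, LT then called 10.8% higher and 17.9% lower. Of those called lower in LR, it called 16.8% lower and 14.7% higher. At this level a call in LR thus did not raise the share called the same way in LT.

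**Figure D2:**
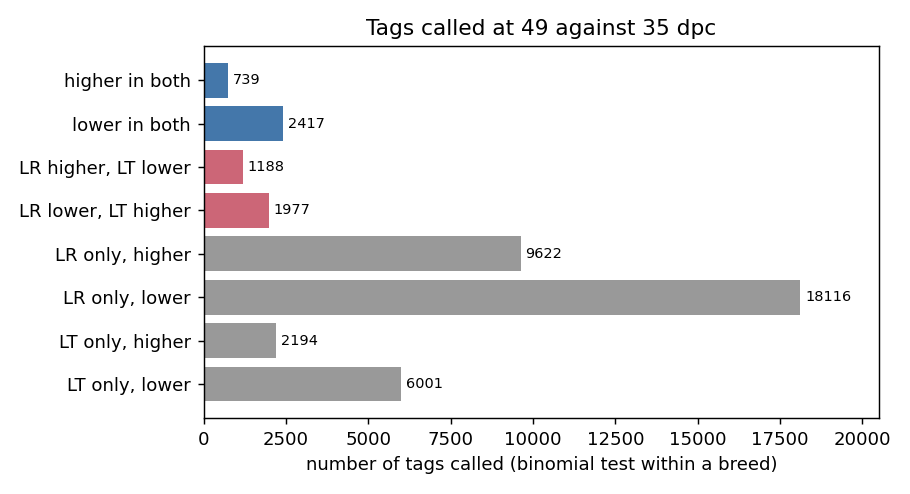
Number of tags called by the binomial test within each breed, split by the direction in LR and in LT. The test covered 282082 tags in LR and 283918 in LT, with 171951 found in both breeds. Calls in LR only (9622 higher and 18116 lower) outnumber the 739 and 2417 tags called the same way in both breeds, and 1188 and 1977 tags were called in opposite directions.

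The split into higher and lower tags depended on scaling. TMM scaling, which sets the bulk of the tags level between libraries, raised the log2 ratio of 49 to 35 dpc by 0.56 in LR and by 0.16 in LT. The share of higher tags among the calls was then 59.0% in place of 33.9% in LR and 45.0% in place of 33.8% in LT. Among tags called in the same direction in both breeds it was 48.0% (1145 of 2386) in place of 23.4%. Directions below are therefore relative to library totals, and for tags that moved little they hold only on that scale. With an assumed coefficient of variation of 0.4 between libraries, 61 tags were called the same way in both breeds and 5 in opposite directions. Of those 61 tags, 41 were also among the 105 called by edgeR with breed as a block.

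The median sizes of the shared changes were similar in the breeds. Tags called higher in both had a median log2 change of 1.95 in LR (quartiles 1.28 and 2.71) and 1.61 in LT (1.15 and 2.17), on the log2(TPM + 1) scale. Tags called lower in both had medians of -1.85 in LR (-2.42 and -1.30) and -1.70 in LT (-2.52 and -1.14). More than 2-fold changes in both breeds were seen in 532 of the 739 and 1798 of the 2417 tags, and more than 4-fold changes in 135 and 559. Absence was mostly found among the lower tags, since 280 of the 2417 lower tags were missing from both libraries of 49 dpc and 13 of the 739 higher tags from both libraries of 35 dpc. The direction in these lists is fixed by the way they were chosen and is no result.

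The most abundant tags that moved the same way in both breeds were not among the 105, and were picked after their values had been seen. They are shown because the 105 hold few tags of high level.
abundant riser 1: CATGaccaaaaaccaaaagtg
abundant riser 2: CATGagacagacagttgctgt
abundant riser 3: CATGaagatcaagattattgc
abundant riser 5: CATGaaatactatttcctcaa
abundant riser 6: CATGcaataaaccttgtcttc
abundant faller 1: CATGggcgaaatcaacagctt
abundant faller 6: CATGtgcccagggcagtgttt

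Abundant riser 1 had 3983 and 6685 TPM in LR and 3314 and 5822 TPM in LT at 35 and 49 dpc, a ratio of 1.68 in LR and 1.76 in LT. For this tag the breeds moved by nearly the same amount. Abundant riser 3 went from 438 to 6225 TPM in LR, 14.2-fold, and from 650 to 1032 TPM in LT, 1.59-fold. In LT it was higher still at 63 dpc, at 2097 TPM. Its breed by stage interaction was -3.46 ± 0.541 (SE, log2) and did not pass (edgeR, adjusted p = 0.0605). Abundant risers 2, 5 and 6 also had the larger ratio in LR, 2.93, 4.66 and 8.12 against 1.45, 1.52 and 2.16 in LT. Abundant riser 6 holds the polyadenylation signal AATAAA, whose share of counts moved with the LR library of 49 dpc. None of these 5 abundant risers was called by edgeR with breed as a block (adjusted p of 0.385 or more), and all 5 kept their calls in both breeds with TMM scaling.

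Abundant faller 1 had 3133 and 1701 TPM in LR and 3171 and 2057 TPM in LT. Abundant faller 6 went from 508 to 36.1 TPM in LR, 14.1-fold lower, and from 619 to 410 TPM in LT, 1.51-fold lower. With TMM scaling abundant faller 1 was called in neither breed, and abundant faller 6 was called in LR alone.

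Across tags, the breeds did not move together at 49 dpc. Over the 28633 tags that reached a mean of 5 TPM, the log2 change from 35 to 49 dpc in LR and in LT had Pearson's r of -0.0232. The change had the same sign in 45.4% of tags (95% Wilson interval 44.9 to 46.0, with tags taken as independent, which they are not). With TMM scaling, over 28535 tags, the same sign was seen in 40.4%. Changes were wider in LR, with an SD of 1.58 against 1.09 in LT, and 54.6% of tags moved more than 2-fold in LR against 28.0% in LT. The r depended on level: it was -0.0660 for 5 to 10 TPM, 0.122 for 50 to 100 TPM, 0.164 for 100 to 200 TPM and 0.00925 from 500 TPM on. With a minimum of 20 TPM it was 0.0532, on the other side of 0, and Spearman's rho was -0.139. These are descriptions across tags, with no p.

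The same tags agreed better between the breeds when the later stages were set against 35 dpc. The r of the log2 change in LR and LT was 0.263 at 63 dpc, 0.273 at 77 dpc and 0.329 at 91 dpc, with the same sign in 56.5%, 57.1% and 59.0% of tags. All 4 comparisons share the libraries of 35 dpc. The tags were kept by their mean over the libraries of 35 and 49 dpc. The filter thus used the values of 49 dpc but not those of 63 to 91 dpc, so the stages do not stand on equal terms. Of the 4 stages 49 dpc had the lowest r, and the cause was not tested.

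**Figure D3:**
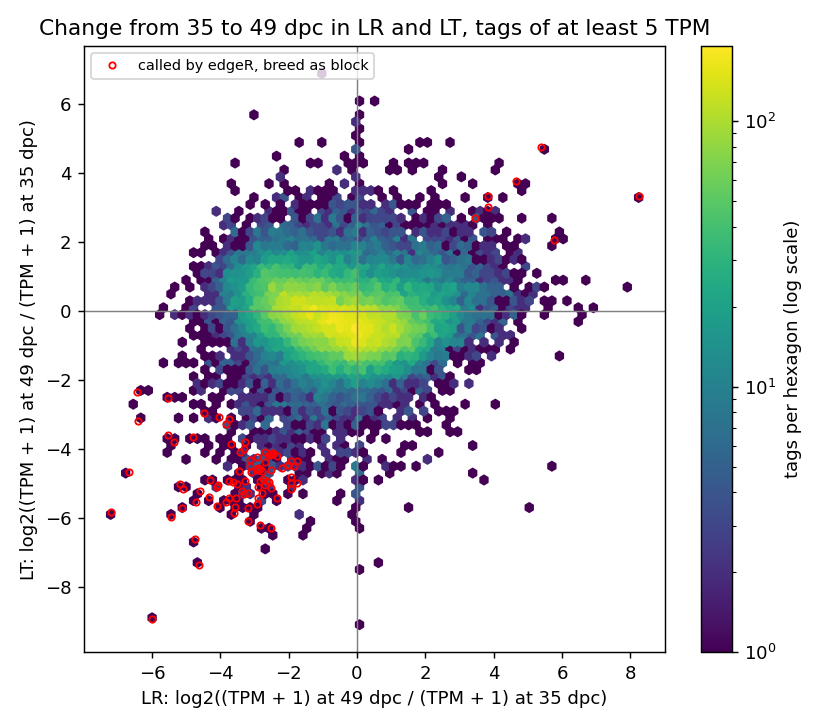
Log2 change from 35 to 49 dpc in LR (horizontal) and LT (vertical) for the 28633 tags that reached a mean of 5 TPM, with colour for the number of tags on a log scale and red circles for tags called by edgeR with breed as a block. The cloud has no slope (r = -0.0232), is wider along LR than along LT, and the called tags lie mostly at the lower left, among tags that fell in both breeds.

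Tags called in one breed only were 27738 of the 282082 tested in LR, 9622 higher and 18116 lower. In LT they were 8195 of 283918, 2194 higher and 6001 lower. Of the tags called in LR only, 1183 higher and 609 lower ones were absent from both LT libraries. Of those called in LT only, 340 higher and 903 lower ones were absent from both LR libraries. Such tags could not be called in the other breed. A call in one breed and none in the other is not a difference between them, and the difference itself was tested as the interaction of breed and stage, with the spread taken from the pairs of 63, 77 and 91 dpc. That test called 0 of 79222 tags (0%), while 18521 had an unadjusted p below 0.05 and the smallest adjusted p was 0.0605. The count was close to the threshold, since 225 tags were called with library totals in place of TMM factors, 1937 with tags 1 base apart merged and 3388 without the filter on low counts. The tags below are the abundant ones called in one breed only that are described.
LR riser 1: CATGaaatgtgacattgatat
LR riser 2: CATGgcctttaaggacaccgg
LR faller 1: CATGaagctttgagtgaagcc
LT riser 1: CATGagcaaaaattcactttg
LT faller 2: CATGttcattataatctcaaa

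LR riser 1 had 1822 TPM at 35 dpc and 9223 TPM at 49 dpc in LR, 5.06-fold higher, and 2481 and 3310 TPM in LT. It stayed above LT, at 9935 to 14385 TPM in LR and 3889 to 5007 TPM in LT from 63 to 91 dpc. LR riser 2 had 1780 and 7564 TPM in LR and 2843 and 2289 TPM in LT, an interaction of -2.70 ± 0.522 (SE, log2, edgeR adjusted p = 0.0641). LR faller 1 fell from 2882 to 559 TPM in LR, 5.16-fold, and had 2464 and 3409 TPM in LT (interaction 2.54 ± 0.584, edgeR adjusted p = 0.0738). In these 3 tags LR moved by 4.25-fold to 5.16-fold and LT by 1.24-fold to 1.38-fold. With TMM scaling LR riser 1 and LR faller 1 were also called higher in LT. LR riser 3 and LR fallers 2 and 3 moved by 1.48-fold to 1.69-fold in LR. With TMM scaling LR riser 3 kept its call and LR fallers 2 and 3 were called in neither breed.

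LT riser 1 had 3176 and 5203 TPM in LT, 1.64-fold higher, and 3680 and 3862 TPM in LR. LT faller 2 fell from 3046 to 999 TPM in LT, 3.05-fold, and stayed at 801 to 944 TPM from 63 to 91 dpc, while LR had 2001 and 2262 TPM. LT risers 2 and 3 and LT fallers 1 and 3 moved by 1.47-fold to 1.92-fold in LT and by 1.07-fold to 1.19-fold in LR. With TMM scaling all 6 of the tags named for LT were called higher in LR, so that these calls in LT only belong to the scale of library totals.

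Some tags called in opposite directions were abundant. The 3 tags with the highest mean level were chosen for each pattern, and their direction in each breed follows from that choice.
crossing tag 1: CATGcccattgtacttgaact
crossing tag 2: CATGtcacaagcaaatgtgtc
crossing tag 3: CATGccggtgcagaagcagac
crossing tag 4: CATGatgagtgtaaagaaaat
crossing tag 5: CATGgactttggaaaatattt
crossing tag 6: CATGtgaattttctaaaggtg

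Crossing tag 1 had 2098 and 3751 TPM in LR and 3515 and 1596 TPM in LT at 35 and 49 dpc. Crossing tag 2 had 1673 and 2389 TPM in LR and 2318 and 1243 TPM in LT. Crossing tag 3 had 705 and 1405 TPM in LR and 1812 and 1036 TPM in LT. In all 3 LT was above LR at 35 dpc and below it at 49 dpc. From 63 to 91 dpc LR stayed above LT in each of them, for crossing tag 1 at 3322 to 4357 TPM against 990 to 1586 TPM.

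Crossing tag 4 had 4219 and 1664 TPM in LR and 1690 and 3072 TPM in LT. Crossing tag 5 had 1719 and 948 TPM in LR and 1127 and 3337 TPM in LT. Crossing tag 6 had 1691 and 377 TPM in LR, 4.49-fold lower at 49 dpc, and 707 and 3935 TPM in LT, 5.57-fold higher. Its interaction, 4.35 ± 0.870 (SE, log2), was the largest of the 6 and did not pass in the 10 prenatal libraries (edgeR, adjusted p = 0.0646). With TMM scaling crossing tag 5 was not called in LR, and the other 5 kept both directions.

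The 63, 77 and 91 dpc libraries, which were not used in any call within a breed, showed what became of each list. Tags called higher in both breeds took 3.23% of the counts of LR and 2.93% of those of LT at 35 dpc and 14.2% and 7.22% at 49 dpc. At 63, 77 and 91 dpc they took 14.0%, 15.8% and 16.7% in LR and 13.2%, 12.0% and 11.4% in LT. From 49 dpc on, LT was thus closest to LR at 63 dpc, and the breeds moved apart again up to 91 dpc. Tags called lower in both fell from 7.43% to 2.56% of the counts in LR and from 9.83% to 3.70% in LT, and stayed at 2.48% to 3.12% in LR and 2.62% to 2.89% in LT. At 63, 77 and 91 dpc alike, 1772 of the 2417 lower tags (73.3%) were on the 49 dpc side of their midpoint in both breeds, and 425 of the 739 higher tags (57.5%).

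The tags called in opposite directions kept the order of the breeds in their summed shares from 49 to 91 dpc. The 1977 tags lower in LR and higher in LT took 9.39% of LR and 5.32% of LT at 35 dpc and 2.50% and 13.0% at 49 dpc. From 63 to 91 dpc they took 3.19% to 3.74% of LR and 9.20% to 10.1% of LT, and LT was above LR in 1854 to 1927 of the tags. The 1188 tags higher in LR and lower in LT took 3.74% and 6.47% at 35 dpc and 9.07% and 3.15% at 49 dpc. They stayed at 7.18% to 7.70% in LR and at most 3.33% in LT, with LR above LT in 1091 to 1109 tags. Of these lists, 524 (26.5%) and 313 (26.3%) of the tags were on the 49 dpc side of the midpoint in both breeds at all 3 later stages.

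**Figure D4:**
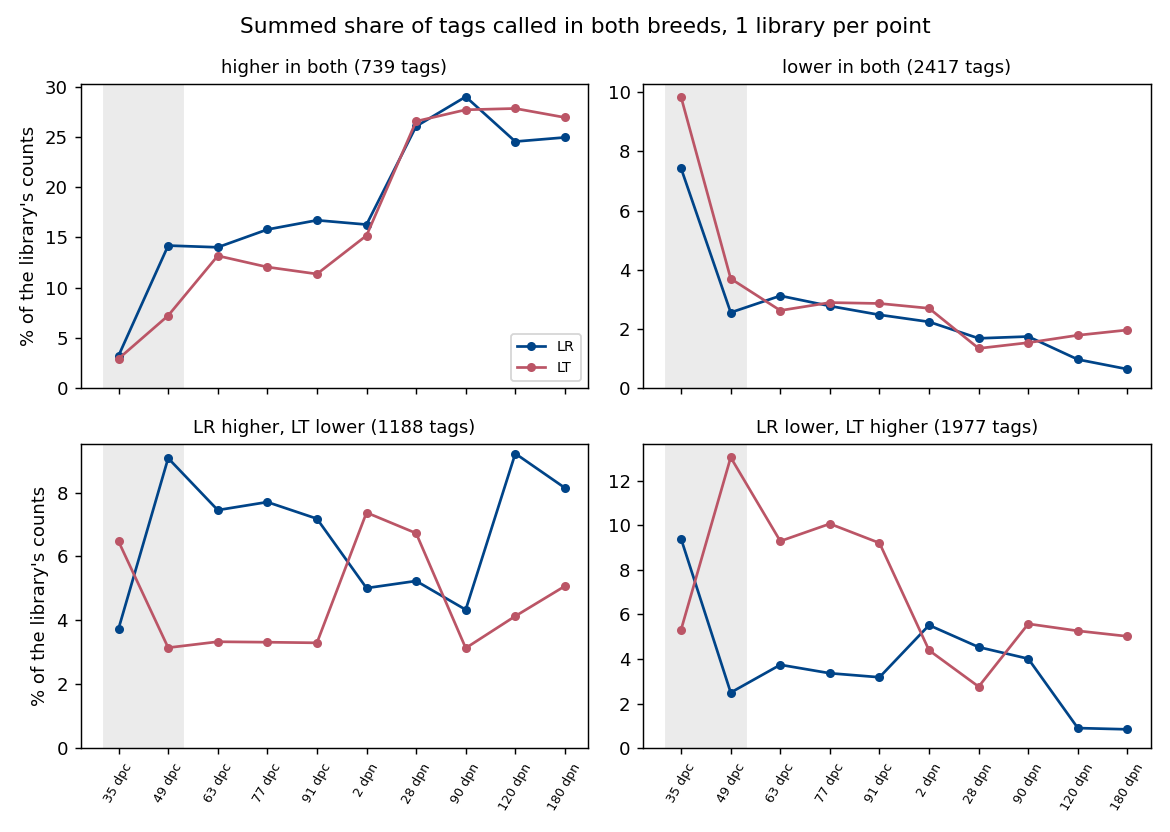
Summed share of the counts of each library, in percent, taken by the tags of the 4 lists called in both breeds, at the 10 stages from 35 dpc to 180 dpn, with LR in blue, LT in red and 1 library per point. Grey marks the stages compared. The direction of each list from 35 to 49 dpc follows from how it was chosen (7.43% to 2.56% in LR and 9.83% to 3.70% in LT for lower tags). The crossing lists kept the order that the breeds had at 49 dpc up to 91 dpc. At 2 and 28 dpn the order was the reverse in both crossing lists, and from 90 dpn on it was again that of 49 dpc.

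Sequence content of the libraries moved with the comparison, and in LR more than in LT. Tags with a further CATG within the 17 bases, which 4.11% of the 394049 tags hold, took 3.40% of the counts of LR at 35 dpc (95% Wilson interval 3.38 to 3.41) and 2.62% (2.60 to 2.63) at 49 dpc, and 3.19% and 3.66% in LT. Tags with AATAAA, the polyadenylation signal, read on the strand of the tag and held by 1.36% of tags, went from 2.21% to 3.67% in LR and from 2.02% to 1.92% in LT. Tags with a run of 8 A, held by 0.587% of tags and able to overlap AATAAA, went from 0.129% to 0.706% in LR and from 0.146% to 0.145% in LT. In LR the shares with a further CATG and with AATAAA stayed at 2.69% to 2.87% and 3.32% to 3.89% up to 91 dpc. The share with a run of 8 A was 0.191%, 0.126% and 0.686% in LR at 63, 77 and 91 dpc. In LT it was 0.425%, 0.144% and 0.0920% at these stages, so this share varied between single libraries in both breeds.

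In AATAAA and in a further CATG the lists differed in the same sense as the shares of LR, but not in the run of 8 A. A run of 8 A stood in 0.0842% (1) of the tags higher in LR and lower in LT. It stood in 0.152% (3) of those lower in LR and higher in LT, against 0.587% of all tags. A further CATG stood in 1.77% and 3.69% of these lists. AATAAA stood in 4.04% of the tags higher in LR and lower in LT, in 0.607% of those lower in LR and higher in LT, in 2.44% of those higher in both and in 1.61% of those lower in both. Among tags of at least 5 TPM, the 550 with AATAAA had a median log2 change of 0.40 in LR and -0.44 in LT, against -0.45 and -0.19 in the 27060 tags with none of the 3 features. The 103 tags with a run of 8 A had medians of 3.17 in LR and 0.26 in LT. Leaving out all tags with any of the 3 features gave an r between the breeds of -0.0282 and 102 tags called with breed as a block, 9 higher and 93 lower.

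**Figure D5:**
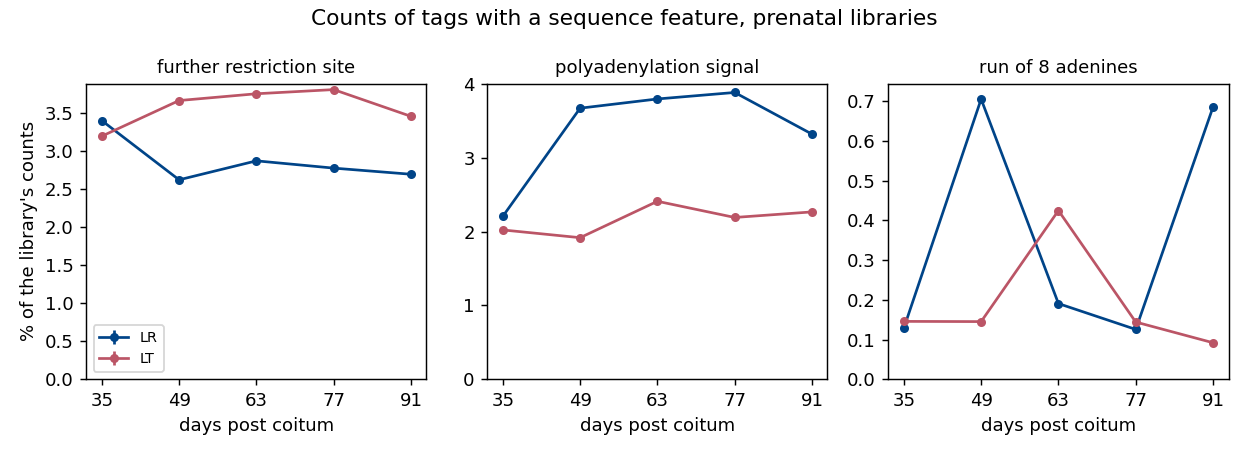
Share of the counts, in percent with 95% Wilson intervals smaller than the points, of tags that hold a further restriction site, the polyadenylation signal or a run of 8 adenines in the 10 prenatal libraries, with LR in blue and LT in red. Between 35 and 49 dpc the LR library moved from 2.21% to 3.67% for the signal and from 0.129% to 0.706% for the run, while LT stayed within 2.02% to 1.92% and 0.146% to 0.145%.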

How the data were processed

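DGE tag libraries of the longissimus muscle were used, 1 per breed and stage, each from a pool of 3 animals. The authors removed adaptor tags, low-quality tags and tags with 1 copy and deposited, per library, the count of each clean tag, which had not been normalized, and the same count as TPM. The submitters' processing notes name Bowtie 0.12.3, whose role for these files is not given in the sources used here. TPM was computed again from the counts, with 0 for an absent tag.

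The main test was a quasi-likelihood fit in edgeR to the counts of the 4 libraries with breed as a block, TMM factors (1.14, 0.777, 1.12 and 1.01 for LR at 35 and 49 and LT at 35 and 49 dpc), a filter on low counts by stage and adjustment by Benjamini and Hochberg. It leaves 1 residual degree of freedom, and the spread was shared over all tags. The SE printed with edgeR values, also for the interaction, is approximate. It was taken as the absolute log2 fold change divided by the square root of the F statistic of the test. Nothing states that libraries are separate replicates of a stage, so p-values measure only the spread between these pools. The exact binomial test within a breed was chosen here and used 0.01 TPM in place of 0 in the ratio. The interaction used the 10 prenatal libraries, with 2 residual degrees of freedom. Ratios between breeds used log2(TPM + 1), which understates the change of low tags. The pairing of libraries comes from the breed in the labels.

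Tags were named by rule: per direction the 6 highest and the 6 with the largest fold among tags called by edgeR and in both breeds, 3 per breed and direction called in that breed only, and the 3 highest per opposite pattern. Because the interaction called none, the one-breed tags were taken by mean level among tags with at least 3 counts in each library. Abundant risers and fallers were added after their values had been seen, and some of them are not reported here. The members and lists were chosen with earlier results of these data known. Gene lists, cell type markers and a gene-level test were not run, since no transcripts were used here. Tests were tested on simulated data. Other scalings, filters, thresholds, tools, thinning to equal depth, merging of tags 1 base apart and omission of single libraries were tried as alternatives. edgeR 4.0.16 and DESeq2 1.42.0 were run in R 4.3.3. Other steps were run in Python 3.11.15 with scipy 1.17.1, numpy 2.4.6 and pandas 2.3.3.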

Additional observations from a re-analysis of the deposited data

Results flagged for a closer look

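Some values moved in opposite directions in LR and LT between 35 and 49 dpc. Tags called in opposite directions by the binomial test numbered 3165, and the test of the difference itself, the interaction in edgeR, called 0 tags. The interaction (LT change minus LR change, log2) of crossing tags 1 to 6 was -2.27, -1.71, -2.10, 1.91, 2.13 and 4.35, with adjusted p from 0.0646 to 0.169 in edgeR. The share of counts of tags with a further CATG changed by -0.778 percentage points in LR and by 0.468 points in LT, a difference (LT minus LR) of 1.25 points. The same difference was -1.57 points for AATAAA and -0.578 points for a run of 8 A. These shares come from 1 library each, and their difference between breeds was not tested.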

How the results depend on the processing

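The breed-blocked edgeR count of 105 was 149 with library totals, 94 with DESeq2 size factors, 123 with a minimum of 10 counts in 2 libraries, 112 with tags 1 base apart merged, 104 without tags holding a further CATG and 102 without those holding any of the 3 sequence features, the last chosen after seeing the data. It was 502 with DESeq2, out of 34485 tags with an adjusted p. These 502 shared 17 tags with the 105 and had 63.9% higher in place of 8.57%. The edgeR count was 40 without a filter on low counts, 0 with no replicate block and 0 with the spread of the 10 prenatal libraries. Leaving out 1 library, without the block and with the lone library taken to vary like the other stage, it ranged from 0 to 14: 14 without LR at 35 dpc, 0 without LR at 49 dpc, 1 without LT at 35 dpc and 0 without LT at 49 dpc. Same-breed libraries deviated from their stage means with a correlation of 0.0880 over 28633 tags, so the pairing by breed is one of design. For the 19 named risers and fallers, 134 values under the alternatives kept direction and call and 132 kept the direction but not the call. The interaction count of 0 was 225 with library totals, 3388 without the filter and 1937 with merging. For the 18 tags named for one breed or opposite directions, 51 values under these kept direction and side of the threshold and 3 kept the direction and passed. With an assumed coefficient of variation of 0.4 the tags called in both breeds were 61, in one breed or in opposite directions 1567, in LR only 1150, in LT only 412 and in opposite directions 5, and under the other alternatives these 5 counts stayed within 1.5 times. The r between breeds was 0.0532 from 20 TPM on, -0.139 as Spearman's rho and -0.00312 over all tags, and -0.0200 to -0.0307 otherwise. Depth limits tags near 3 copies, and a single pool per breed and stage limits every comparison. The gene-level test and its alternatives were not run, since no transcripts were used here.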

Other observations

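The lists called in both breeds were also followed after birth, where the tags had not been chosen. The 739 tags called higher in both took 16.3% of the counts of LR and 15.2% of those of LT at 2 dpn, and 24.5% to 29.0% in LR and 26.6% to 27.8% in LT from 28 to 180 dpn. The 2417 tags called lower in both took 2.24% and 2.70% at 2 dpn and 0.642% to 1.74% in LR and 1.34% to 1.97% in LT from 28 to 180 dpn. The median level of the higher tags did not follow their summed share, with 30.2 TPM at 2 dpn and 5.53 TPM at 180 dpn in LR and 23.6 and 18.1 TPM in LT. Abundant riser 5 was an example of a tag that peaked after birth, at 8913 TPM in LR at 2 dpn and 19696 TPM in LT at 28 dpn. From 28 dpn on, riser 2 was higher than at any prenatal stage in both breeds, with 2228 TPM in LR and 2775 TPM in LT at 180 dpn. All 20 values of a tag come from single pools, so no error can be given for them.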
